A study of Mus musculus with 2 samples.

Results

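Among lymphoid progenitors sorted from mouse fetal liver, 195 of 8583 kept cells (2.27%, exact Clopper-Pearson interval 1.97 to 2.61%) carried a B lineage signature. The cells were chosen by measured values: a cell was taken when the summed UMIs of Cd79a, Vpreb3, Igll1, Vpreb1, Ebf1 and Pax5 reached at least 5 and those of Mpo, Ctsg, Car1, Ms4a2, Mcpt8, Cpa3 and Klf1, genes of myeloid, erythroid and mast cells, stayed under 10. A UMI is a count of 1 tagged RNA molecule. These 13 genes chose the cells, so their levels are a description and support nothing. The progenitors, called αLPs after the integrin α4β7 they carry, were read by single-cell RNA sequencing in droplets, with 1 fetal liver library (E14.5 in the design text) and 1 library of adult bone marrow. Both came from untreated wild-type B6 mice and were sorted in the same way as lineage-negative CD45+ CD127+ Flt3- α4β7+ CD25- cells, with a stated purity and viability of over 90%. The sources used here name neither the antibodies of the lineage cocktail nor the number or sex of the animals. The labels give 6 to 8 weeks as the age of the fetal as well as the adult sample, and both have 1 and the same batch label.

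B cells arise from lymphoid progenitors under the transcription factors E2A (Tcf3), Ebf1 and Pax5. Pro-B cells rearrange the immunoglobulin heavy chain gene with the Rag1 and Rag2 recombinase, and the new heavy chain is tested in the pre-B receptor, where it pairs with the surrogate light chain encoded by Igll1 and the Vpreb genes and signals through Cd79a and Cd79b. In the fetus the liver is a main site of this process. Interleukin 7, read by the receptor CD127, is the chief growth factor of early B cells in the mouse.

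The sequences just upstream of the rule genes Igll1 and Vpreb3 are shown because Ebf1 and E proteins are known to bind the control regions of such genes. Both are RefSeq sequences of GRCm38.p6, the assembly also called mm10, and run 5′ to 3′ along the gene's strand over the 250 bases before the transcription start. The Igll1 window (chr16:16863986-16864235, minus strand) lies upstream of the gene, and the Vpreb3 window (chr10:75948050-75948299, plus strand) lies upstream of the main start and within an intron of a longer GENCODE transcript.
Igll1: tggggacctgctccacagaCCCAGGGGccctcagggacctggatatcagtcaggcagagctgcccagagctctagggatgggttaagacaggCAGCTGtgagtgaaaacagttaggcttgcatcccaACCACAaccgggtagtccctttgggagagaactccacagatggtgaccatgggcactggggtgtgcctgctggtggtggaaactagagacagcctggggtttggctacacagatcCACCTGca
Vpreb3: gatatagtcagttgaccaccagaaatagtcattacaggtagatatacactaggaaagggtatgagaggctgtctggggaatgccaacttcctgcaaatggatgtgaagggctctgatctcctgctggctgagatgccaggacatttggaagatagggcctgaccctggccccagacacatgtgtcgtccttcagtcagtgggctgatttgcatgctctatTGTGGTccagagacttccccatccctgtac
The capitals mark matches, on either strand, to CCCNNGGG (Ebf1), CAGCTG and CACCTG (E proteins) and TGTGGT (Runx factors). Igll1 held all 4 motifs, at 231, 158, 8 and 123 bases before the start in that order of motifs, and Vpreb3 held only TGTGGT, 30 bases before it. Over the same window of all 32851 promoters in the table, CCCNNGGG was found in 11.8%, CAGCTG in 13.0%, CACCTG in 17.2% and TGTGGT in 14.0%. Of the 6 rule genes 1, 1, 3 and 3 held them. A match describes letters in the window and is neither a binding site nor a cause.

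The 195 cells had a median of 9834 UMIs (range 1869 to 36989) and 2344 genes, against 9282 UMIs and 2331 genes in the other 8388 kept fetal liver cells. Cells were kept with at least 500 genes and at most 10% of UMIs on mitochondrial genes. Of 8946 fetal liver barcodes with 91781395 UMIs and 7367 bone marrow barcodes with 30039931 UMIs, 363 and 109 were left out. The libraries shared 19 cell barcodes, of which 0 belonged to the B lineage-like cells. No doublet caller was run, so droplets with more than 1 cell remain. Cells of 1 library are not replicates, so no test was made: values are sums over cells in counts per 1000000 UMIs (CPM), and exact 95% intervals cover counting error only.

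The rule sum ranged from 5 to 142 UMIs with a median of 39. Cd79a (mm10 chromosome 7, 24897381 to 24902197), the signalling chain of the B cell receptor, had a median of 11 UMIs per cell (0 to 41) and was found in 95.4% of the cells. Ebf1 (chromosome 11, 44617317 to 45008091), the factor that specifies the lineage, had a median of 9 (0 to 68) and was found in 93.8%. Vpreb3 (chromosome 10, 75943057 to 75949657), a chaperone-like relative of the surrogate light chain, had a median of 12 (0 to 51) and was found in 82.1%.

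The remaining rule genes were found in fewer cells. Igll1 (chromosome 16, 16860671 to 16863985), which encodes λ5, was found in 56.4% of the cells at up to 37 UMIs. Pax5 (chromosome 4, 44524757 to 44710487), the factor of B lineage commitment, was found in 47.2% at up to 5 UMIs. Vpreb1 (chromosome 16, 16868403 to 16870843) was found in 40.5% at up to 23 UMIs. A total of 30 cells had all 6 genes, 64 had 5, 45 had 4 and 9 had 1. Across the cells as a group the 6 genes stood at 1271 CPM (Vpreb3), 1063 (Ebf1), 1023 (Cd79a), 489 (Igll1), 165 (Vpreb1) and 68.2 (Pax5), and in the other fetal liver cells at 1.08, 3.20, 1.87, 0.135, 1.56 and 0.0337 CPM.

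**Figure D1:**
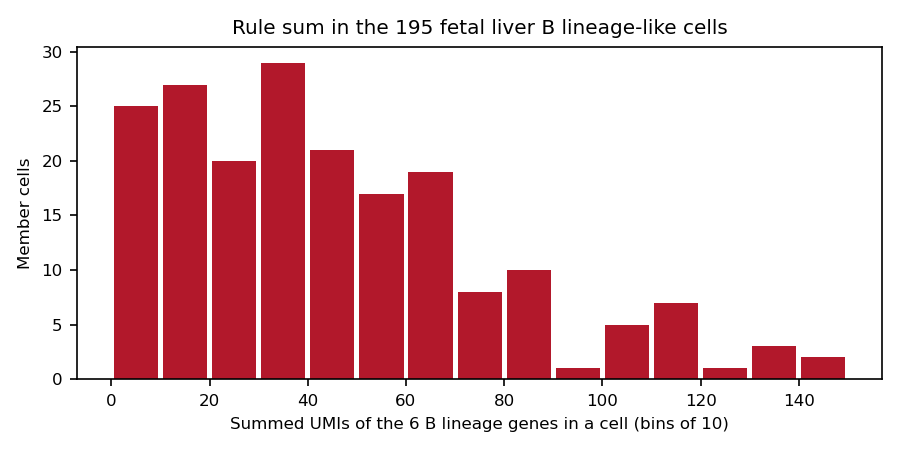
Number of B lineage-like cells (y axis) by summed UMIs of the 6 B lineage genes, in bins of 10 (x axis). The sums spread from 5 to 142 with no single peak, and 25 of the 195 cells lie in the lowest bin, at 5 to 9 UMIs.

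Around the threshold the cells differed in more than the rule genes. Just outside it, 25 kept cells with an other-lineage sum under 10 had 3 or 4 UMIs of the 6 genes. Just inside, 18 cells had 5 or 6. Mzb1 was found in 72.0% of the former and 88.9% of the latter, Cox6a2 in 64.0 and 83.3%, and Nkg7, a gene of cytotoxic granules, in 60.0 and 33.3%. In the 25 cells with 5 to 9 UMIs, Igll1 was found in 0, Blnk in 8.00% and Id2, the inhibitor of E proteins that innate lymphoid cells (ILCs) require, in 40.0%. In the 143 cells with 20 or more UMIs, Igll1 was found in 72.0%, Blnk in 67.8%, Id2 in 20.3% and Nkg7 in 9.09%. Median UMIs were 11932 in the former and 10231 in the latter. The part of cells of other types in these low sums was not tested.

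Adult bone marrow gave almost no such cells. Under the same rule 2 of 7258 bone marrow cells passed (0.0276%, interval 0.00334 to 0.0995%). They had 5 and 7 UMIs of Ebf1 and, in the former, 1 of Vpreb1, with 0 of Cd79a, Cd79b, Blnk, Mzb1 and Rag1. With 2 cells no level was compared. Kept bone marrow cells had a median of 3447.5 UMIs against 9294 in kept fetal liver cells, and the part of this depth in the share was not tested.

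Among genes that the rule did not use, the largest ratios over the other fetal liver cells at 50 CPM or more included Blnk, Cox6a2, Mzb1 and Cd24a. Blnk, the adaptor that links the pre-B receptor to its kinases, led with 93.3 CPM against 0.359 (log2 ratio 8.02, interval 7.48 to 8.61). Cox6a2, a cytochrome c oxidase subunit best known from muscle, stood at 942 against 9.45 CPM (6.64). Mzb1, a chaperone of antibody-secreting and marginal zone B cells, was found in 99.0% of the cells and stood at 1331 against 30.4 CPM (5.45). Cd24a, the heat stable antigen, stood at 624 against 19.2 CPM (5.02).

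The other leading genes were of diverse kinds. Cecr2, a chromatin remodelling factor, had a log2 ratio of 5.87, and Slamf6, a receptor of lymphocytes, of 5.82. Myl4, a myosin light chain of embryonic muscle, had 5.41 and Bfsp2, a filament protein of the eye lens, 4.90. Jchain, which joins secreted antibodies, had 4.89 but was found in only 25.6% of the cells, at up to 42 UMIs in 1 cell. Ly6d, a surface marker of B-biased lymphoid progenitors, had 4.86 and reached 160 UMIs in 1 cell. Il12a, a chain of interleukins 12 and 35, had 4.81, Sapcd1 4.44, Arl5c 4.17 and Ifi27l2a 3.94. Of the 6553 genes that reached 10 CPM in either group, 355 (5.42%) were at least 2-fold higher and 607 (9.26%) at least 2-fold lower in the B lineage-like cells, and the median log2 ratio over all of them was -0.06.

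Detection followed the levels when depth was made equal. Each cell was thinned at random to 3000 UMIs, which left out 3 of the B lineage-like and 307 of the other cells. Mzb1 was then found in 94.8% of the B lineage-like and 4.71% of the other cells, Cox6a2 in 77.1 and 1.24%, Cd24a in 64.6 and 3.97% and Blnk in 24.0 and 0.186%. Cd79a was found in 85.9% against 0.421% of the thinned cells.

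**Figure D2:**
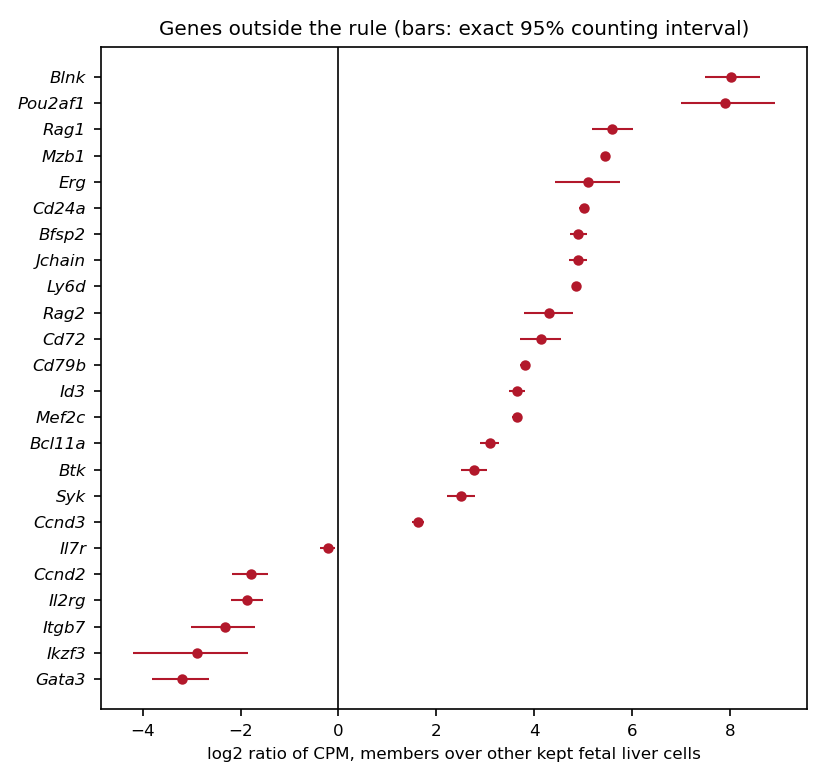
log2 ratios of CPM (x axis), B lineage-like cells over the other kept fetal liver cells, for 24 genes outside the rule (y axis), with exact 95% counting intervals as bars. Blnk and Pou2af1 lie farthest to the right at 8.02 and 7.89, Il7r lies near 0 at -0.22, and Gata3 lies farthest to the left at -3.20.

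Transcription factors of the B lineage were mostly higher. Of 28 in the list, which leaves out the rule genes, 24 were measured, meaning at least 10 CPM in the higher group. A total of 15 were at least 2-fold higher and 1 was at least 2-fold lower, with a median log2 ratio of 2.00. Pou2af1, the B cell coactivator OBF1, stood at 32.0 against 0.135 CPM (7.89) and Erg, an ETS factor of progenitors, at 17.2 against 0.505 (5.09). Id3, an inhibitor of E proteins, stood at 178 against 14.2 CPM (3.65) and Mef2c, which acts with Ebf1, at 568 against 45.6 (3.64). Bcl11a, needed for the earliest B cells, had 3.09, Tcf4 2.33, Spi1 (PU.1) 2.30, Foxo1, an activator of the Rag genes, 1.93, and Tcf3 1.21. Ikzf3 (Aiolos), a relative of Ikaros that comes up at the pre-B stage, was the member that was lower, at 3.25 against 24.0 CPM (-2.89). Ikzf1 (Ikaros) stood at 69.1 against 65.3 CPM, a log2 ratio of 0.08.

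Genes of the pre-B receptor and its signalling showed no member that was 2-fold lower. Of 24 listed genes that could be read, 17 were measured and 12 were at least 2-fold higher, with a median of 2.51. The heavy and light chain constant genes were not analysed here. Vpreb2 was counted 55 times and 0 times, at least 758-fold higher against 3 counts over the other cells, but it is nearly identical to Vpreb1 and reads may be split between them. Cd79b, the partner of Cd79a, stood at 492 against 35.2 CPM (3.80) and was found in 28.0% of the other cells. Cd72 had 4.14 and the kinase genes Blk, Btk, Syk and Lyn 3.27, 2.78, 2.51 and 1.67.

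A list of B cell surface and stage genes was mostly higher. Of 31 listed, 21 were measured, 14 were at least 2-fold higher and 0 were at least 2-fold lower (median 3.43). The list was drawn up with earlier results of these data known. It also holds genes that are not of the cell surface, among them Cecr2, Myl4, Mzb1, Xrcc6 and Hmgn1. Cecr2, Myl4, Mzb1, Cd24a and Ly6d were already named above, so its count in part restates them. Gfra2 had a log2 ratio of 6.63, Akap12 5.59, Tnfrsf13c (the BAFF receptor) 4.85, Chchd10 3.91 and Cd93, a marker of immature B cells, 3.43. Kit, the stem cell factor receptor, stood at 17.6 against 28.6 CPM (-0.70). Ms4a1 (CD20), Cr2, Cd40 and Dntt had 0 UMIs in the 195 cells, which allows a level of up to 1.39 CPM. Dntt, the terminal transferase that adds bases at antigen receptor joints, had 1 UMI in the other fetal liver cells.

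The recombinase genes were higher at low counts, 107 UMIs of Rag1 and 51 of Rag2 over the 195 cells, so a cell without a UMI may still hold the RNA. Rag1 stood at 49.6 against 1.03 CPM (log2 ratio 5.59, interval 5.17 to 6.01) and was found in 36.4% of the cells. Rag2 stood at 23.7 against 1.20 CPM (4.30) and was found in 20.5%. A total of 17 cells had both. Xrcc6 (Ku70), a subunit of the DNA end-binding complex that joins the breaks, had 2.50, while its partner Xrcc5 (Ku80) had -0.05. Of 16 listed rearrangement genes 8 were measured, 3 were at least 2-fold higher and the median was 0.65.

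Genes of the sorting gate were read next, as the cells had passed it as protein. Il7r, the gene of CD127, stood at 154 against 179 CPM (-0.22) and was found in 74.4% of the cells. Itga4, the α4 chain, stood at 162 against 172 CPM (-0.08). Itgb7, the β7 chain, stood at 9.74 against 48.8 CPM (log2 ratio -2.33, interval -3.02 to -1.71) and was found in 8.72% of the cells against 35.8% of the others. After thinning the shares were 3.12 and 15.9%. Flt3, sorted against, stood at 17.2 against 1.07 CPM (4.01) and was found in 14.9 against 0.990% of cells, 3.12 against 0.309% after thinning. Il2ra had 0 UMIs in these cells.

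The interleukin 7 pathway was not higher as a group. Of 17 measured genes 1 was at least 2-fold higher and 7 were at least 2-fold lower, with a median of -0.57. Ccnd3, the D cyclin of pre-B cell expansion, was the higher one, at 282 against 91.6 CPM (1.62). Socs1, a feedback inhibitor, had -2.39, Il2rg, the common γ chain that completes the receptor, -1.86, Ccnd2 -1.80 and the survival gene Bcl2 -1.79. Among the cell cycle regulators outside this pathway Ccnd1 stood at 26.4 against 3.18 CPM (3.06).

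The cells held somewhat more cell cycle RNA than the rest of the library. Genes of S phase and of G2 and M phase made up a median of 1.12% of UMIs in the B lineage-like cells and 0.691% in the others. The shift was spread over the lists: of 43 measured S phase genes 0 were 2-fold apart (median 0.34), and of 46 measured G2 and M genes 3 were higher and 0 lower (median 0.31). Mki67 was found in 34.9% and Top2a in 67.2% of the cells. Between the upper and lower 97 cells by this share, the leading genes outside the lists were Lockd (2.69), Prc1 (2.50), Ccnb1 (2.40), Fbxo5 (1.94) and Ccna2 (1.83), known cycle genes. On the low side stood Dqx1 (-1.69), Ccl3 (-1.28), Klrd1 (-1.27), Ctsl (-1.18) and Ccr9 (-1.16). Of 6201 genes, 311 (5.02%) were at least 2-fold higher and 282 (4.55%) lower in the upper cells. The groups are ranges of a score, not cell types.

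Markers of the innate lymphoid and other blood lineages were low but not absent. Of 17 measured ILC transcription factors 15 were at least 2-fold lower (median -2.40), of 8 T lineage genes 7, of 10 NK and ILC1 genes 9, of 8 LTi and ILC3 genes 7 and of 8 ILC2 genes 7. In each of the last 3 lists 1 gene was within 2-fold, with log2 ratios of 0.74, 0.63 and 0.72. Klrd1, of the NK and ILC1 list, was found in 70 of the 195 cells. Gata3 stood at 12.1 against 111 CPM (-3.20) and Id2 at 66.8 against 580 (-3.12). Tbx21, Eomes, Cd3e, Gzmb, Il17a and Il1rl1 had 0 UMIs. Il22 stood at 2.78 against 129 CPM (-5.53), Ifng at 3.71 against 158 (-5.41) and Cxcl10 at 10.2 against 241 (-4.56). Cck had 0 UMIs and was at least 36.8-fold lower against 3 counts, and Cxcl3 had 1 UMI (log2 ratio -6.75, interval -12.1 to -4.27).

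The rest of these markers were uneven over cells. Summed over the 16 NK and ILC1 genes, the level per 10000 UMIs ranged from 0 to 67.4 in the B lineage-like cells, with a median of 0.650 and 90 cells at 0, against a median of 12.6 in the others. Without the 20 cells with the most UMIs (17062 or more), Cxcl10 moved from -4.56 to -6.66, Cd160 from -4.58 to -6.10, Gata3 from -3.20 to -4.73 and Cd3g from -3.07 to -4.10. The part of UMI depth or doublets in these levels was not tested. Of 11 measured erythroid, megakaryocyte and mast cell genes 10 were at least 2-fold lower. Car1, Cpa3 and Mcpt8 among them are rule genes that the choice of cells kept low, so this count in part restates the rule. The haemoglobin gene Hbb-bs had -4.29, but -0.50 among cells with at least 1000 genes, and it was found in 4.10% of either group. Of 11 measured myeloid genes 7 were lower and 2 higher, Ly6c2 at 4.86 and Itgam at 4.28, found in 7.18 and 12.3% of the cells. Mpo and Ctsg among the lower genes are also rule genes that the choice of cells kept low.

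**Figure D3:**
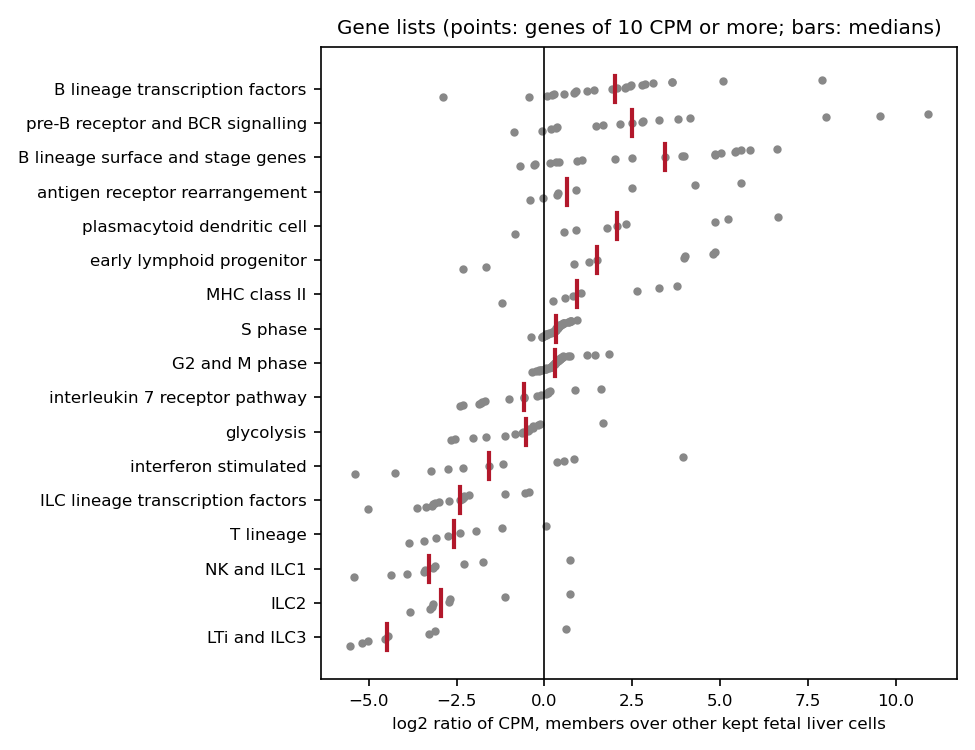
log2 ratios of CPM (x axis), B lineage-like over the other kept fetal liver cells, for the measured genes of 17 lists (points) with each list's median (bar). Medians of the B lineage signalling, factor and surface lists lie between 2.00 and 3.43, the cell cycle lists at 0.31 and 0.34, and the T, NK, ILC2 and LTi lists between -4.49 and -2.57.

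Genes of plasmacytoid dendritic cells, which share their progenitors in part with B cells, were mostly higher, in a list that overlaps the B lineage lists. Of 9 measured genes 6 were at least 2-fold higher and 0 lower (median 2.07). They were Cox6a2, Ly6d, Siglech, Tcf4, Irf8 and Runx2, of which Ly6d, Tcf4 and Irf8 are also counted in the B lineage lists above. Siglech, a surface receptor of these dendritic cells, stood at 28.3 against 0.752 CPM (log2 ratio 5.23, interval 4.71 to 5.76) and was found in 35 of the 195 cells. Of these 35 cells 30 had Ly6d and 8 had Igll1. Irf8 had 2.07 and was found in 37.4% of the cells.

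Within the B lineage-like cells, the genes divided by the presence of Igll1. The split was chosen after values were seen, and Igll1 is a rule gene, so it is a description. A total of 110 cells had at least 1 UMI of Igll1 and 85 had 0, with medians of 9838 and 9834 UMIs. Their median rule sums were 53.5 and 19 UMIs, so the split also divides the cells by the rule sum. Of 6358 genes, 231 (3.63%) were at least 2-fold higher and 453 (7.12%) at least 2-fold lower in the cells with Igll1. Vpreb1 stood at 273 against 26.5 CPM (3.37), and Cd24a at 835 against 354 (1.24). Bfsp2, Blnk, Xrcc6 and Cd79b had 1.17, 1.16, 1.15 and 1.12, Ccnd3 1.00 and Tcf3 0.97. The B lineage lists, which leave out or hold few rule genes, had medians near 0. Of 26 measured transcription factors 3 were at least 2-fold higher and 3 lower (median 0.09). Of 17 pre-B receptor genes 4 were higher and 1 lower (0.15), and of 23 surface and stage genes 5 and 4 (-0.12). Of the 71 cells with Rag1, 46 had Igll1. Mki67 was found in 42.7% of the cells with Igll1 and 24.7% of those without.

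On the other side stood genes of dendritic cells and of innate lymphocytes. Ccr9, a homing receptor to gut and thymus, stood at 28.1 against 133 CPM (log2 ratio -2.24, interval -2.83 to -1.68). Ly6d stood at 583 against 1898 CPM (-1.70), although it was found in 57.3 against 69.4% of the cells. Cd7 had -2.08, Runx3 -1.88, Alox5ap, of the leukotriene pathway, -1.78, Lmo4 -1.60, Tyrobp, a signalling adaptor, -1.49, Bst2 -1.36, Irf8 -1.27 and Klrd1 -1.09. Of 9 measured plasmacytoid dendritic cell genes 6 were at least 2-fold lower in the cells with Igll1 (median -1.36), and of 14 ILC transcription factors 9 were (median -1.30). Ly6d and Irf8 are also in the B lineage lists. All 25 cells with sums of 5 to 9 fall among those without Igll1. When they were left out, Ccr9 moved to -1.88, Cd7 to -1.51, Ly6d to -1.63, Vpreb1 to 2.94, Cd24a to 0.74 and Blnk to 0.70, so that Cd24a, Bfsp2, Blnk, Xrcc6, Cd79b, Ccnd3 and the rule genes Ebf1 and Vpreb3 were no longer 2-fold apart. When Igll1 was read in cells thinned to 3000 UMIs, which gave 82 cells with and 110 without it, Cd24a (0.91), Blnk (0.95), Xrcc6 (0.76), Cd79b (0.89), Irf8 (-0.94) and Klrd1 (-0.96) were under 2-fold.

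**Figure D4:**
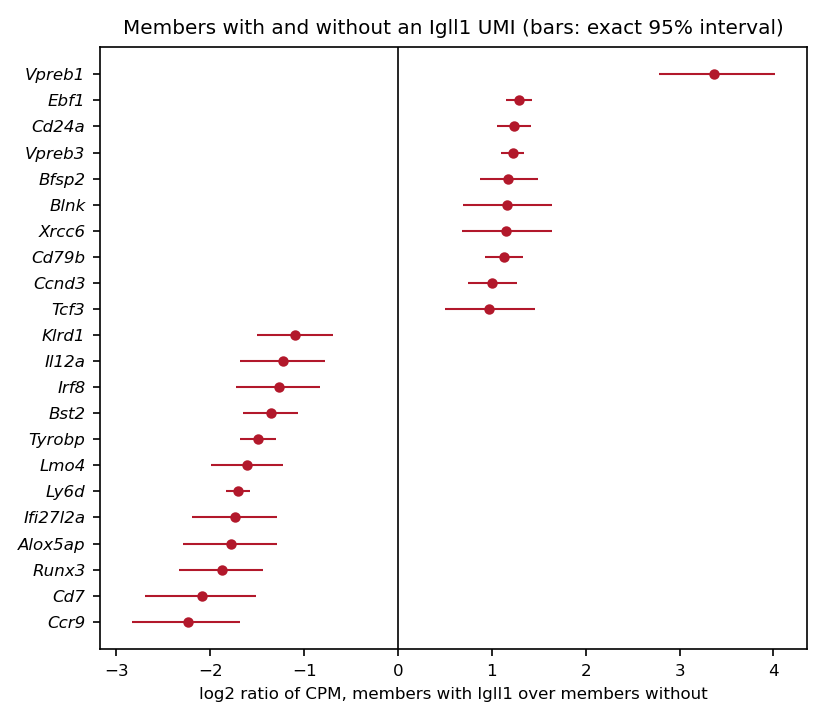
log2 ratios of CPM (x axis), 110 B lineage-like cells with Igll1 over 85 without, for 22 genes (y axis) with exact 95% counting intervals as bars. Vpreb1 lies farthest to the right at 3.37, and Ebf1, Cd24a, Vpreb3, Bfsp2, Blnk, Xrcc6, Cd79b, Ccnd3 and Tcf3 lie between 0.97 and 1.29. Ccr9, Cd7 and Runx3 lie farthest to the left at -2.24, -2.08 and -1.88. Ly6d and Irf8, which are also in the B lineage lists, lie at -1.70 and -1.27.

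The B lineage-like cells were then set beside cells with part of the same signature. Because Ly6d and Cox6a2 were high, 133 kept fetal liver cells outside the rule with at least 5 UMIs of these 2 genes and under 10 of the other-lineage genes were taken, a choice made after values were seen. Their median was 8933 UMIs, 86 of them had 0 UMIs of the 6 rule genes, and 145 of the 195 B lineage-like cells passed the same minimum. Of 6605 genes, 259 (3.92%) were at least 2-fold higher and 570 (8.63%) at least 2-fold lower in the B lineage-like cells. Several genes were near equal in both: Jchain stood at 202 and 201 CPM (0.01, interval -0.21 to 0.23), Siglech at 28.3 and 34.6 (-0.29, interval -0.85 to 0.28), Tcf4 at 126 and 104 and Tcf3 at 84.9 and 74.1. Plac8, a gene of lymphoid and dendritic progenitors, was found in every cell of both groups, at 2687 and 5178 CPM.

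Of the lists, that of MHC class II was the highest outside the rule genes and that of the T lineage the lowest. Of 7 measured MHC class II genes 6 were at least 2-fold higher in the B lineage-like cells (median 3.15). These genes were uneven over cells: 74 of the 195 cells had 0 UMIs of the 10 listed genes. Cd74 was found in 27.2% of the B lineage-like cells and 6.77% of the cells outside the rule. The B lineage lists were less far apart: 9 of 17 pre-B receptor genes (median 1.00), 10 of 21 surface and stage genes (0.70) and 7 of 24 transcription factors (0.51) were at least 2-fold higher, and 0, 3 and 2 were lower. Bfsp2 stood at 213 against 14.8 CPM (3.85), Cd24a at 624 against 52.9 (3.56), Cd74, the invariant chain of MHC class II, at 142 against 13.4 (3.41), Chchd10 at 467 against 48.7 (3.26) and Cd79b at 492 against 59.2 (3.05). Blnk had 4.05. The cells outside the rule had Gzma, a granzyme, at 494 CPM against 8.35 (-5.89), Bcl11b, the factor of T and ILC2 commitment, at 176 against 8.82 (-4.32) and Cd3g at 286 against 33.9 (-3.08). Tcf7, a Notch-induced factor of T and ILC progenitors, had -2.58 and Notch1 -1.33. All 9 measured T lineage genes were at least 2-fold lower in the B lineage-like cells (median -3.08), as were 12 of 15 ILC transcription factors (-1.60) and 5 of 6 ILC2 genes (-1.66). Rag1 stood at 49.6 against 16.9 CPM (1.55) and was thus found on both sides, in 36.4 and 12.0% of cells.

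**Figure D5:**
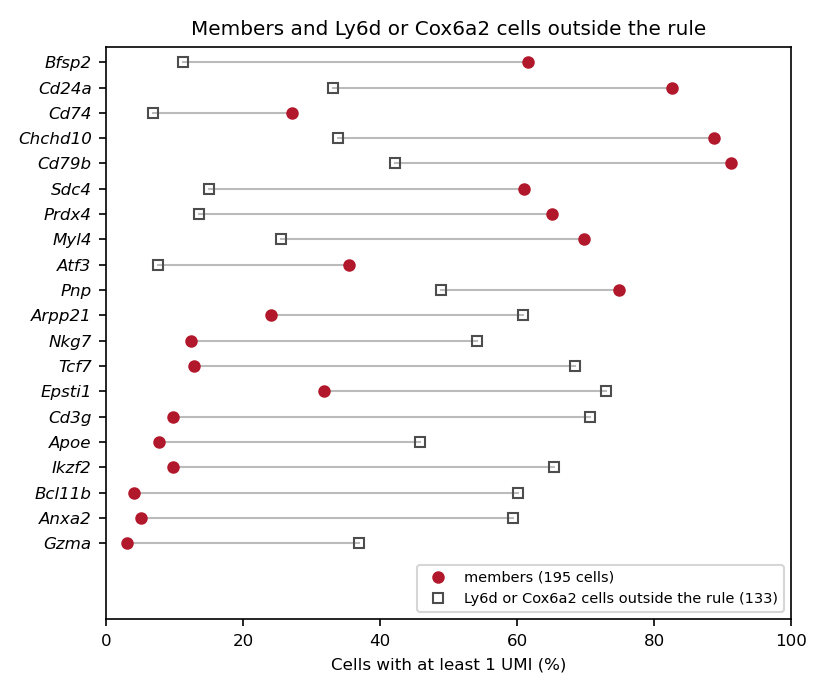
Share of cells with at least 1 UMI (x axis) for 20 genes (y axis) in the 195 B lineage-like cells (filled points) and in 133 fetal liver cells with Ly6d or Cox6a2 outside the rule (open squares). Cd79b and Chchd10 were found in 91.3 and 88.7% of the former, and Epsti1 and Cd3g in 72.9 and 70.7% of the latter.

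Genes of the fetal blood programme differed little from the other fetal liver cells. Of 7 measured genes around Lin28b 6 were within 2-fold and 1 was higher (median 0.46). Hmga2 stood at 52.0 against 46.5 CPM (0.16) and Igf2bp3 at 52.9 against 47.6 (0.15). The one that was higher was Bhlhe41, a factor of B-1a cells, the B cells that arise mainly in fetal life, at 15.8 against 2.69 CPM (2.55). Arid3a, a factor of fetal B lymphopoiesis, had 0.73. Lin28b itself was at 8.35 against 5.44 CPM, under the minimum. Of 5 measured imprinted growth genes 3 were at least 2-fold lower, among them Igf2 with 2 UMIs (-4.01, interval -7.06 to -2.16) and Cdkn1c (-2.02), and H19 stood at 54.7 against 99.8 CPM (-0.87).

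Genes that followed the rule sum from cell to cell were ranked by Spearman's correlation with the sum as a share of UMIs, which shares the cell's depth with every gene and carries no p. Across all 8583 fetal liver cells Cox6a2 (0.393), Mzb1 (0.381), Cecr2 (0.369), Blnk (0.360) and Slamf6 (0.336) were most alike. The B lineage-like cells are among these cells, and 7867 of the 8583 had a rule sum of 0. This ranking is thus drawn from the values that chose the cells, and it is a description that supports nothing. Among the 195 cells alone Cd79b (0.685), Cd24a (0.539), Ccnd3 (0.536), Hmgb2 (0.535) and H3f3a (0.511) led. Of the 5 genes most alike across all cells, Mzb1 (0.464) and Blnk (0.454) were also among the 10 highest here, Slamf6 had 0.390, Cecr2 0.238 and Cox6a2 0.00568. Tnni1 (-0.453), Nrgn (-0.450), Cd27 (-0.438) and Tcf7 (-0.427) stood at the other end.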

How the data were processed

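The values deposited are UMI counts of each gene in each barcode without normalization, written by matrix software 3.0.1 per the file headers; barcodes that did not belong to cells had been removed by the authors, per the labels' protocols. Libraries were made with a droplet 3' kit. The submitters' processing notes name mm10 and Seurat 4.0; the sources used here name no aligner. Gene and barcode lists, as deposited, hold no measurement (other). Of 27998 gene identifiers 27645 matched GENCODE M21. The members and the 29 gene lists were chosen with earlier results of these data known. Counts were summed over cells and scaled to CPM, and exact conditional intervals were computed with scipy 1.17.1. No test was made, as each tissue has 1 library. Folds against 0 counts use 3 counts. Named genes are the 15 largest and 10 smallest ratios at 50 CPM or more, B lineage list members of at least 100 CPM, and up to 4 members of each other list; in the Ly6d or Cox6a2 comparison they are the 10 largest and 10 smallest at 100 CPM or more. Other genes were chosen after values were seen, and some results are not reported here. The calculations were tested on simulated data. Alternatives changed the thresholds, the filters, the scaling (TMM factors from edgeR 4.0.16) and the comparison cells.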

Additional observations from a re-analysis of the deposited data

How the results depend on the processing

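No paired analysis was possible because each tissue has 1 library. With 11 alternatives, 5 of 106 named genes that were 2-fold apart fell under 2-fold in at least 1 of them. The 29 list medians were computed in 14 settings, the main one among them, and 0 changed sign. The median of the B lineage surface and stage genes moved from 3.43 to 1.04 when genes of any level entered and 1 CPM was added to both values. The direction reversed for Hba-a2, at 0.0202 among cells with at least 1000 genes, and for the rule gene Mpo, at 0.13 against cells with no B lineage UMIs and an other-lineage sum under 10. A split by cell cycle share that left out the middle cells gave 567 genes higher and 585 lower, against 311 and 282 over all cells, with smaller groups. The member number ranged from 170 at a sum of at least 10 to 220 at a sum of at least 3. The median-ratio factor moved every log2 ratio by 0.06 and the TMM factor by 0.03. Of the 11 alternatives 1, and all alternatives to the Igll1 split, were chosen after seeing the data. Depth limits what can be called absent: 3 counts are 1.39 CPM in these cells. Shares of cells with a UMI depend on depth as well. Shares at 5000 UMIs or without thinning lay outside the exact interval of the share at 3000 UMIs in 160 cases and inside it in 108. At 3000 UMIs Rag1 was found in 14.1% and Pax5 in 19.8% of the B lineage-like cells, against 36.4 and 47.2% without thinning.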

Other observations

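Other gene groups also differed between the B lineage-like cells and the other fetal liver cells, beside the background of 5.42% higher and 9.26% lower genes. Of 8 measured MHC class II genes 4 were at least 2-fold higher and 1 lower, with a median of 0.93. The peptide-loading genes H2-Ob, H2-DMb2 and H2-DMa had log2 ratios of 3.77, 3.27 and 2.63, while the classical chain genes H2-Ab1 and H2-Aa had 1.04 and 0.59 and the class II activator Ciita had 0 UMIs. H2-Oa, the partner of H2-Ob, was the lower one, at -1.22. Of 15 measured immediate early genes 7 were at least 2-fold lower and 1 higher (median -0.95), with Dusp1 at -2.05 and Egr1 at -1.83 and Atf3 at 1.26. Of 16 measured glycolysis genes 5 were lower and 1 higher (median -0.54). The lactate exporter gene Slc16a3 had -2.67, and its relative Slc16a1 was the higher one, at 1.66. Of 11 measured interferon stimulated genes 7 were lower and 1 higher (median -1.59), Ifi27l2a at 3.94 against Igtp at -4.26. Of 11 measured secretory genes 3 were higher, Mzb1, Jchain and Sdc1, and the general secretory gene Sec61b stood at 1188 against 1418 CPM.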
